A study of Saccharomyces cerevisiae with 3 samples.

Results

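The 36 genes described here encode the 32 measured subunits of the yeast proteasome, its transcriptional activator RPN4, the assembly factor UMP1, the segregase CDC48 and the CDC48 partner UFD1. They were chosen by gene symbol, and all 36 of them were among the 5539 genes with a named spot on the array. Each was represented by 2 spots. RNA of a Saccharomyces cerevisiae mutant of YAP1, by the series title a deletion, was hybridised together with wild-type RNA on 3 two-colour arrays, replicates 1 to 3. Both strains had been exposed to 1.0 mM arsenite, As(III), for 1 h, so no unexposed cells enter the comparison. The labels give neither the strain background nor how the mutant was made. Whether each replicate came from its own culture is not stated. The p-values therefore reflect only how much these arrays differed, a spread that may be technical.

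The proteasome degrades proteins tagged with ubiquitin. Its core particle is a barrel of alpha and beta rings that holds the proteolytic sites inside, and its regulatory particle, made of a base and a lid, recognises, deubiquitinates and unfolds substrates. In budding yeast, Rpn4 binds a shared promoter element of the proteasome genes and is itself degraded rapidly by the proteasome, which forms a feedback loop. RPN4 transcription is in turn known to respond to Yap1, Pdr1, Pdr3 and Hsf1. Yap1 is a bZIP activator of the oxidative stress response, and arsenite both activates it and damages proteins.

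Cy5 marked the mutant and Cy3 the wild type on every array, so dye and genotype cannot be told apart. Values are log2 ratios, likely of mutant over wild type. The deposited table does not state the direction, for which the titles, the dyes and the lower YAP1 ratio were the basis. The deposited ratios fell with spot brightness, and a loess curve was subtracted within each array. Unless stated otherwise, values below are on this loess scale with n = 3 arrays, and ± gives the standard error from limma. A gene was called changed at a limma adjusted p under 0.05 over 5539 genes. YAP1 itself had ratios of -0.32, -1.22 and -1.05, a mean of -0.86 ± 0.18 (limma, adjusted p = 0.025). This call was lost without replicate 2 (-0.69, limma, adjusted p = 0.0686) and with spots as technical replicates (limma, adjusted p = 0.206). The mean stayed below 0 under every setting run, although some settings change only the test and not the mean. Its ratio on replicate 1 lay well above the other two, and its 2 spots differed there by 0.70 on the deposited scale. The mean is a level 0.55 times that of the wild type. Recovered YAP1 signals in the mutant channel were 1562, 1099 and 844, above the medians of all spots there (630, 892 and 707). For a gene given as deleted the fall was partial, so YAP1 is a weak check of the direction. Why it was partial was not tested.

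RPN4 (YDL020C), the activator of proteasome genes, fell. Its recovered signals were 4011, 4005 and 1793 in the mutant channel, against 15858, 14198 and 9685 in the wild-type channel. Every array thus gave the mutant the lower signal before loess, as it did for all 36 genes. This was not particular to them, as 5529 of all 5539 genes had a mean deposited ratio below 0. After loess RPN4 had log2 ratios of -0.994, -0.551 and -0.996, a mean of -0.85 ± 0.15 with a 95% interval of -1.17 to -0.52 (limma, adjusted p = 0.00977). This is a level 0.56 times that of the wild type. On the deposited scale RPN4 had the lowest ratio of the 36 genes on each array, with -1.98, -1.83 and -2.43, and lay 0.66, 0.51 and 0.99 below the median of the 36. Deposited ratios also fell with brightness, and RPN4 is among the brighter of the 36, with a mean log2 signal of 12.6 against their median of 11.8. After loess it was lowest on replicate 1 and second lowest on replicates 2 and 3, behind RPT2 and RPN7.

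**Figure D1:**
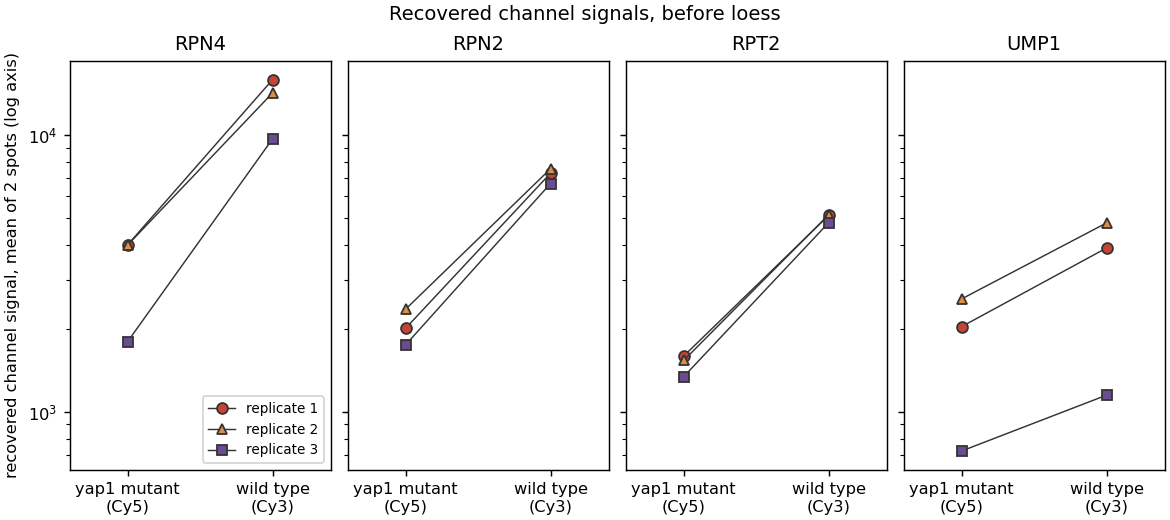
Recovered channel signals (log axis, mean of 2 spots) of RPN4, RPN2, RPT2 and UMP1 in the yap1 mutant (Cy5) and in the wild type (Cy3), each line joining both channels of 1 array. The line of RPN4 climbs most towards the wild type, with 1793 to 4011 in the mutant and 9685 to 15858 in the wild type.

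Among the 32 subunits 2 were called lower and 0 higher, where 2.69% of all genes were called lower and 0.650% higher. RPN2 (YIL075C), a large scaffold subunit of the regulatory particle base, had ratios of -0.87, -0.47 and -0.54 and a mean of -0.63 ± 0.14 (limma, adjusted p = 0.0397). Its signals were 2004, 2349 and 1746 in the mutant channel, against 7284, 7558 and 6683 in the wild-type channel. RPT2 (YDL007W), the ATPase of the base that helps open the gate of the core particle, had ratios of -0.71, -0.60 and -0.53 and a mean of -0.62 ± 0.14 (limma, adjusted p = 0.0341). Both genes were lower on every array, and RPT2 had the narrower spread. Both calls were near the threshold: RPN2 no longer passed without any 1 of the 3 arrays (limma, adjusted p = 0.0566 to 0.0996), and RPT2 no longer passed without replicate 2 (adjusted p = 0.117) or replicate 3 (adjusted p = 0.113). RPN4 passed without each array in turn (adjusted p = 0.00135 to 0.0445).

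**Figure D2:**
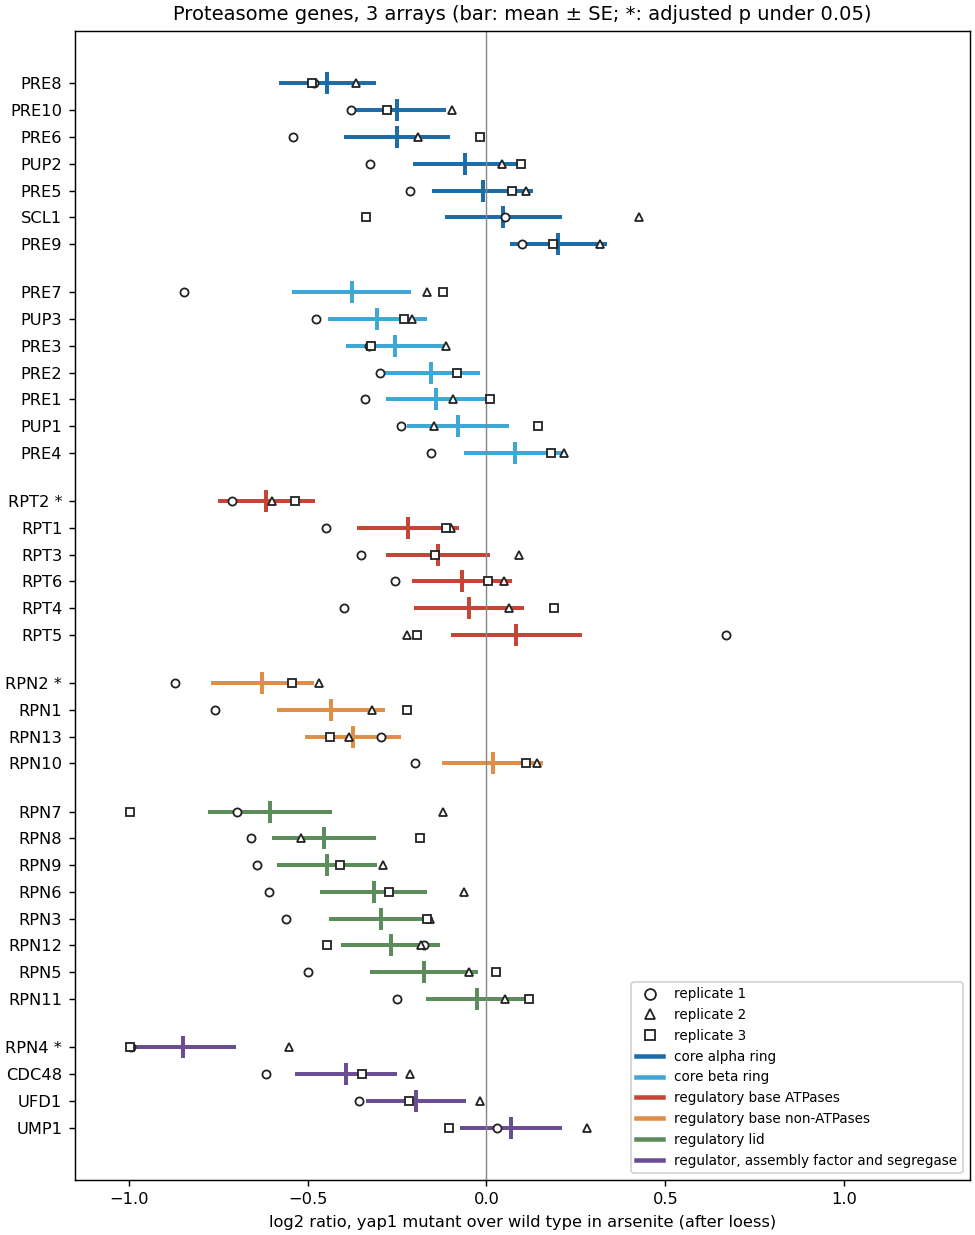
Log2 ratio, yap1 mutant over wild type, of the 36 genes after loess, ordered by role in the complex, with open symbols for the 3 arrays, a coloured bar for the mean ± SE and an asterisk for an adjusted p under 0.05. RPN4, RPN2 and RPT2 lie at -0.85, -0.63 and -0.62, and the other means spread between -0.61 and 0.20.

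In all, 3 of 36 genes (8.33%) were called lower and 0 higher, where 2.69% of all genes tested were called lower, 0.650% higher and 3.34% in either direction. At an unadjusted p under 0.05 limma gave 11 lower and 0 higher genes among the 36, against 11.5% lower and 7.53% higher in all. The median ratio of the 36 was -0.24, beside -0.02 over all genes. Of the 36, 30 (83.3%) had a mean below 0, as did 52.7% of all genes. That count was 26 without replicate 1 and with loess on the mean signal of the spot pair. Of the 36, 21 (58.3%) were below 0 on all 3 arrays, as were 23.9% of all genes, and PRE9 alone was above 0 on all 3, as were 20.3% of all genes. These genes are bright, with mean log2 signals of 10.1 to 12.8 against a median of 9.89 over all genes. With all genes split into 10 equal classes of signal, 33 members lay in the brightest class, beside 521 other genes. There 3 of the 33 members were called lower, against 10.2% of the others, so their share is no higher than among other bright genes. At an unadjusted p under 0.05 limma gave 10 of the 33 as lower, against 26.1% of the others, and 18 of the 33 (54.5%) were below 0 on all 3 arrays, against 38.6%. The median ratio was -0.22 for the 33 members and -0.07 for the others. How far the brightness of the spots shaped the members' ratios was not tested.

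**Figure D3:**
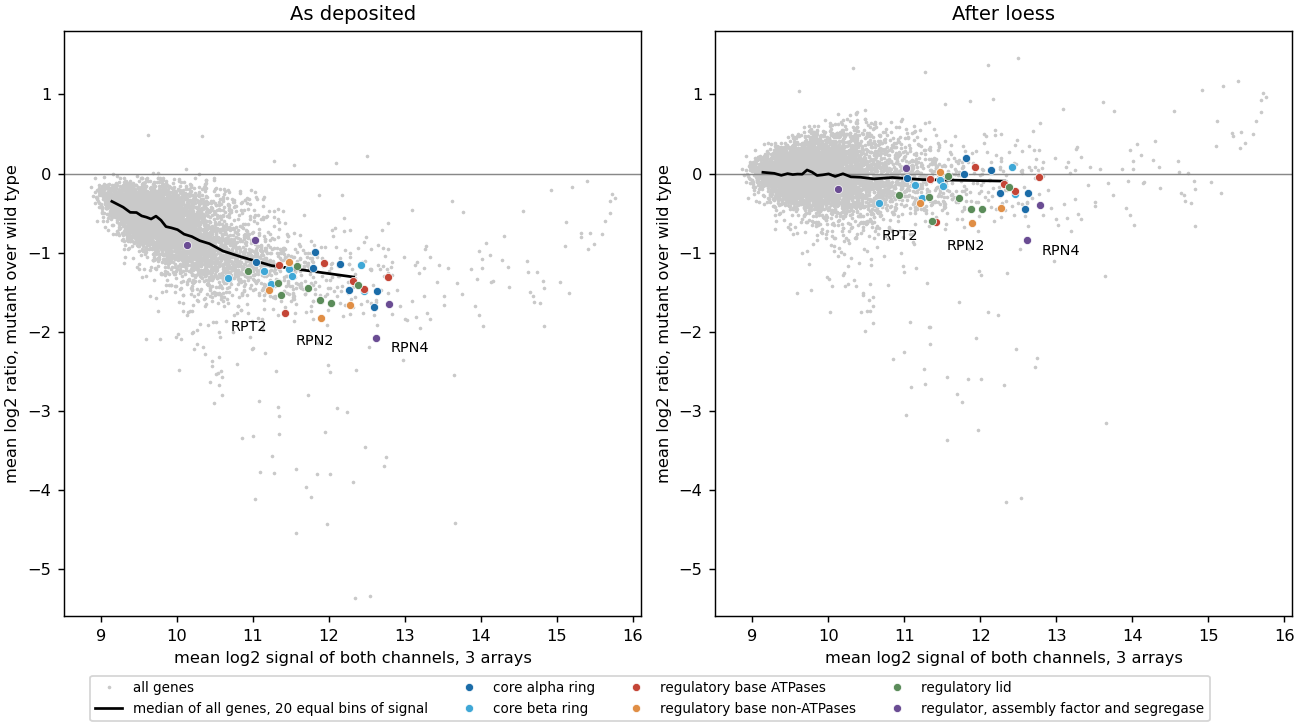
Mean log2 ratio of each gene over 3 arrays against its mean log2 signal, as deposited (left) and after loess (right), with the proteasome genes coloured by role and the median of all genes in 20 equal bins of signal as a black line. The deposited ratios fall with signal, and after loess 30 of the 36 members and 52.7% of all genes have a mean below 0.

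The alpha ring of the core particle, whose subunits form the gate and the docking surface, had a median ratio of -0.06 over 7 genes. None of the 7 was called. Limma gave 1 of them as lower at an unadjusted p under 0.05, where 11.5% of all genes were lower. PRE8 had -0.48, -0.37 and -0.49, and its mean of -0.44 ± 0.13 missed the threshold (limma, adjusted p = 0.111). It had the smallest spread of the ring. PRE10 (-0.25) and PRE6 (-0.25) were also below 0 on all 3 arrays. PRE9, the subunit that yeast can lose and remain viable, had 0.10, 0.32 and 0.19, and its mean of 0.20 was the highest of the 36 without passing (limma, adjusted p = 0.450). SCL1 had 0.05, 0.43 and -0.34, so its arrays disagreed in sign. PUP2 (-0.06) and PRE5 (-0.01) had means close to 0.

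In the beta ring the 7 genes had the median -0.15, and 0 were called. Limma gave 1 of the 7 as lower at an unadjusted p under 0.05, where 11.5% of all genes were lower. Of the subunits with proteolytic sites, PRE3 (caspase-like) had a mean of -0.25, PUP1 (trypsin-like) -0.08 and PRE2 (chymotrypsin-like) -0.15, and none passed. The non-catalytic PRE7 had -0.84, -0.17 and -0.12 and a mean of -0.38 ± 0.17 (limma, adjusted p = 0.253). On this loess scale its mean was -0.14 without replicate 1. On replicate 1 its recovered log2 signal was 9.71, against 11.71 and 10.57 on replicates 2 and 3. Its deposited ratios lay closer together, at -1.43, -1.35 and -1.20, so the low value on replicate 1 depends on the recovered signal. With loess on the mean signal of the spot pair its mean of -0.36 ± 0.13 was close to the -0.38 above, again without passing. The mean over the 3 arrays thus changed little with that choice. PUP3 (-0.31) and PRE1 (-0.14) did not pass, and PRE4 had the only positive mean of the ring, 0.08.

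The 6 ATPases of the base, which unfold substrates and thread them into the core, had a median of -0.10. RPT2 alone was called. RPT1 (-0.22), RPT3 (-0.14), RPT6 (-0.07) and RPT4 (-0.05) did not pass. The ratio of RPT5 was 0.67 on replicate 1, far above -0.22 and -0.20 on the other two, and the same split stood in its deposited ratios of -0.32, -1.47 and -1.62. Its mean of 0.08 turned to -0.21 without replicate 1, and passed in neither case.

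The 4 other subunits of the base had a median of -0.40. Beside RPN2, the scaffold subunit RPN1 had -0.76, -0.32 and -0.22, averaging -0.43 ± 0.15 (limma, adjusted p = 0.155). The ubiquitin receptor RPN13 had -0.30, -0.39 and -0.44, a mean of -0.37 (adjusted p = 0.165). Both were below 0 on every array without passing. The ubiquitin receptor RPN10, which also joins base and lid, had a mean of 0.02.

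All 8 lid genes had a mean below 0, as did 52.7% of all genes, and their median was -0.30. On all 3 arrays 6 of the 8 were below 0, as were 23.9% of all genes. Among the other genes in the brightest of 10 classes of signal that share was 38.6%. None was called, and limma gave 3 as lower at an unadjusted p under 0.05. That was so for 11.5% of all genes and 26.1% of the others in the brightest class. RPN7 had -0.697, -0.121 and -0.997, a mean of -0.61 ± 0.17 (limma, adjusted p = 0.0972). On replicate 3 its recovered log2 signal was 9.86, against 12.25 and 11.99 on replicates 1 and 2, while its deposited ratio there was -1.58, close to -1.68 and -1.34 on the others. With loess on the mean signal of the spot pair over the 3 arrays its mean was -0.36, so the size of its ratio depends on the recovered signal. RPN8 (-0.45, adjusted p = 0.129) and RPN9 (-0.45, adjusted p = 0.125, both by limma) were below 0 on every array. RPN6 (-0.32), RPN3 (-0.29), RPN12 (-0.27) and RPN5 (-0.17) did not pass. RPN11, the deubiquitinase of the lid, had -0.25, 0.05 and 0.12 and the mean nearest 0, -0.03.

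UMP1, the chaperone that is enclosed in the maturing core particle and becomes its first substrate, had 0.03, 0.28 and -0.10. Its mean was 0.07 with a 95% interval of -0.24 to 0.38 (limma, adjusted p = 0.826). CDC48, the ATPase that extracts ubiquitinated proteins from complexes and membranes, had -0.62, -0.21 and -0.35, a mean of -0.39 ± 0.14 (limma, adjusted p = 0.168). Its partner UFD1 had -0.36, -0.02 and -0.22, a mean of -0.20 (adjusted p = 0.471). CDC48 and UFD1 were below 0 on all 3 arrays, and UMP1 was not. The recovered log2 signal of UMP1 was 9.83 on replicate 3, against 11.46 and 11.78 on replicates 1 and 2. With loess on the mean signal of the spot pair the mean of UMP1 was 0.24 without passing. The size of its ratio thus depends on the recovered signal.

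The number of arrays limits what these calls can show. In simulated arrays of the same spread, limma at this threshold recovered 24% of genes changed 1.5-fold and 62% of genes changed 2-fold. Of the 33 members that did not pass, 11 had a 95% interval that reaches a 1.5-fold decrease, and the other 22 had one that does not. The interval of a member extended by 0.31 to either side in the median. Replicate 1 gave the lowest values, with a median of -0.37 over the 36 genes, against -0.11 on replicate 2 and -0.18 on replicate 3. All genes were also lowest there, with medians of -0.09, 0.01 and -0.00, as were the other genes in the brightest of 5 equal classes of signal, with -0.18, -0.01 and -0.07. On replicate 1 32 of the 36 were below 0, and 25 were on each of the others. Across the 36 genes the arrays correlated with r = 0.605 (replicates 1 and 2), 0.466 (1 and 3) and 0.593 (2 and 3), beside 0.537, 0.538 and 0.677 across all genes. The genes share arrays and a normalization curve and are not independent replicates. The 2 spots of a gene differed by 0.049 in the median over the members, far less than the arrays did.

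The counts depended on the scale. With each array only centred on its median, 33 of 36 genes were called lower, against 17.8% of all genes. In the brightest class 31 of 33 members and 68.1% of the others passed. The median of the 36 was then -0.73. The 3 that did not pass were PRE9 (-0.35), UFD1 (-0.27) and UMP1 (-0.20), and the 6 genes with a positive mean after loess all turned negative. Centring does not remove the dependence on brightness, and the median of the others in the brightest class was -0.57 under it. On the uncentred deposited scale, where the median of all genes was -0.66, all 36 passed as lower, as did 75.7% of all genes. Among the settings that kept loess, quantile normalization afterwards added PRE8 and RPN9 (5 members, 5.20% of all genes lower). Print-block medians (2.00%) and normexp background correction (3.61%) left RPN4 alone. A prior variance trend added RPN7 (4 members, 3.95%). The 3 members were kept with a wider loess span (2.78%), with loess on the mean signal of the spot pair (3.07%) or on the rank of the signal (2.51%), with spots as technical replicates (2.98%) and with the dimmest genes left out (4.33%). RPN4 and RPT2 passed without replicate 1 (2.13%), RPN4 and RPN7 without replicate 2 (3.03%) and RPN4 alone without replicate 3 (2.53%) or at an adjusted p under 0.01 (1.32%). Without moderation of the variance 0% of all genes passed. At an unadjusted p under 0.05 that statistic gave 6 of the 36 members, all lower, and 497 of all 5539 genes in either direction. RPN4 kept the lowest mean of RPN4, RPN2 and RPT2 under every setting run, although some settings change only the test and not the means.

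**Figure D4:**
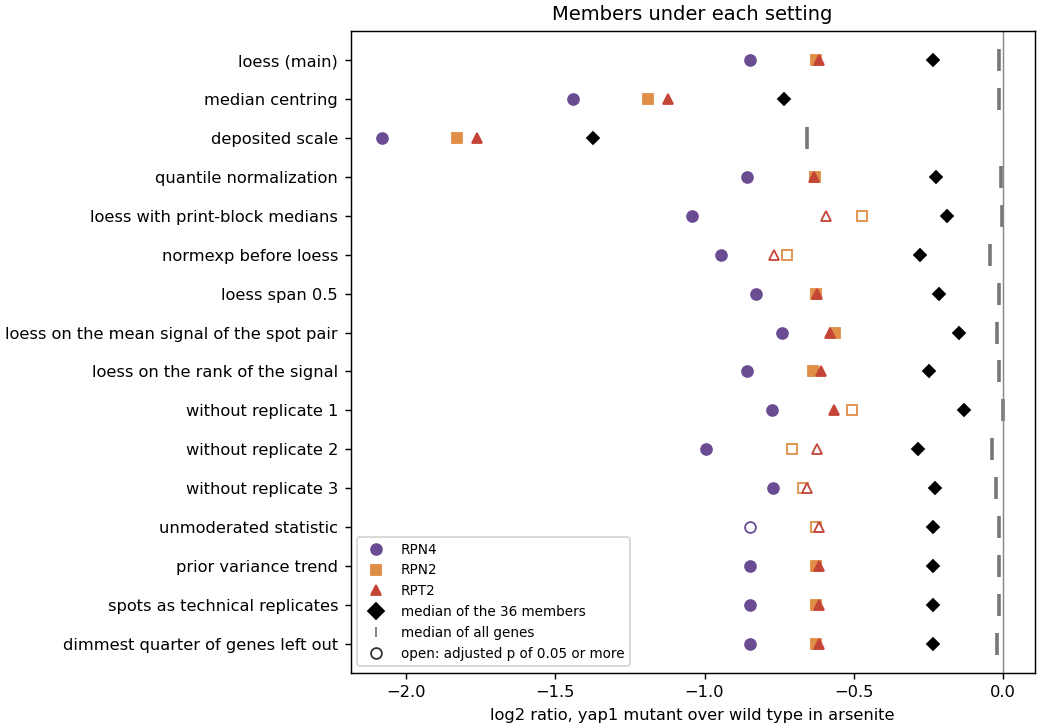
Log2 ratios of RPN4, RPN2 and RPT2, the median of the 36 members and the median of all genes under each processing setting, with filled symbols where limma's adjusted p is under 0.05. RPN4 is lowest in every line, from -2.08 on the deposited scale to -0.74 with loess on the mean signal of the spot pair.

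Other genes of the ubiquitin system were examined in lists. Of 14 measured assembly chaperones and accessory proteins of the proteasome, none was called by limma, with a median of -0.04. At an unadjusted p under 0.05 limma gave 0 as lower and 1 as higher, where 11.5% of all genes were lower and 7.53% higher. The proteasome adaptor gene ECM29 had 0.85, 0.20 and 0.44, the highest mean of that list at 0.50 (limma, adjusted p = 0.124), and the ubiquitin ligase gene HUL5 the lowest at -0.32. The proteasome-bound deubiquitinase gene UBP6 had -0.30. SEM1, a small lid subunit, was not analysed here.

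Of 21 genes of ubiquitin, its conjugation and its shuttle factors 1 was called lower and 0 higher. Of all genes 2.69% were called lower and 0.650% higher. At an unadjusted p under 0.05 limma gave 7 of the 21 as lower and 0 as higher, where 11.5% of all genes were lower. That share depends on signal. Among genes other than the members it rose from 2.17% in the dimmest of 10 equal classes to 26.1% in the brightest. The 21 had mean log2 signals of 9.25 to 12.55 with a median of 10.23, and the class from 10.05 to 10.24 had 15.7%. Whether the related lists differ from other genes of like signal was not tested. DDI1, a shuttle factor with a protease fold, had -0.91, -0.61 and -0.50 and a mean of -0.67 ± 0.14 (limma, adjusted p = 0.0285). It was lower on every array, and the call was lost without replicate 2 (-0.71, adjusted p = 0.0563) and with normexp before loess (-0.82, adjusted p = 0.0771). The ubiquitin-activating enzyme gene UBA1 had -0.57 without passing (limma, adjusted p = 0.0623). The conjugating enzyme gene UBC5 (-0.46), the shuttle factor gene RAD23 (-0.42) and the polyubiquitin gene UBI4 (-0.31) did not pass either. UBR2 (-0.10) and MUB1 (0.03), whose products mark Rpn4 for degradation, had means near 0, and TOM1 had the highest of the list at 0.29. The median was -0.16.

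Of 13 CDC48 cofactors and zinc finger partners none was called by limma. At an unadjusted p under 0.05 limma gave 2 of the 13 as lower and 0 as higher, where 11.5% of all genes were lower and 7.53% higher. The lowest was DOA1 (-0.42) and the highest UBX7 (0.20). UBX7 was above 0 on replicate 1 alone, with 0.90, -0.10 and -0.21. NPL4, which pairs with UFD1 on CDC48, had -0.27. CUZ1 and TMC1, zinc finger genes linked to arsenite exposure in yeast, had means of 0.03 and 0.00. Of 14 deubiquitinases none was called by limma, with a median of 0.00. At an unadjusted p under 0.05 limma gave 3 of the 14 as lower and 0 as higher, beside the same shares of all genes. DOA4, which recycles ubiquitin at endosomes, had -1.32, -0.33 and -0.44, and its mean of -0.70 missed the threshold (limma, adjusted p = 0.0800). It passed without replicate 2 (-0.88) or replicate 3 (-0.83), but both of these keep replicate 1, its lowest array. Without replicate 1 none of the 14 was called. UBP12 had the highest mean at 0.42, from arrays that disagreed in sign (1.18, -0.19 and 0.26). Among the regulators of RPN4, PDR1 had 0.01, 0.18 and -1.23, PDR3 a mean of -0.16 and HSF1 one of 0.04, and none of these passed. After loess PDR1 was low on replicate 3 alone, where its recovered log2 signal was 9.37, against 12.37 and 12.26 on replicates 1 and 2. Its deposited ratios of -0.97, -1.06 and -1.60 differed less, so the size of this low value depends on the recovered signal.

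**Figure D5:**
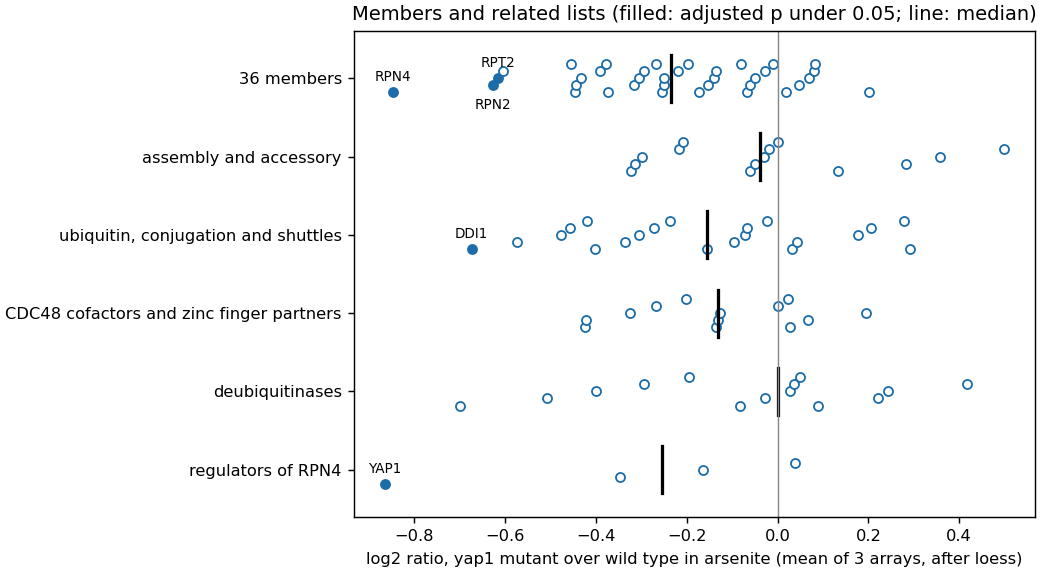
Mean log2 ratio, yap1 mutant over wild type, of the 36 members and of the genes of 5 related lists after loess, 1 circle per gene, filled where limma's adjusted p is under 0.05, with a line at each median. The members' median lies at -0.24 and the medians of the other lists between -0.26 and 0.00.

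The genes next to the called members on the chromosome were also examined. Beside RPN4, OSH2 had -0.41, -0.61 and -1.42, a mean of -0.81 ± 0.19 that passed as lower (limma, adjusted p = 0.042) but not without replicate 1 (-1.01) or replicate 3 (-0.51), and GPM2 on the other side had 0.53 without passing. SEC28 (-0.17) and SER33 (0.07) beside RPN2 and PTC1 (-0.22) beside RPT2 did not pass. The adjacent order came from a RefSeq gene table.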

How the data were processed

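The authors deposited 1 log2 ratio per spot for 13056 spots on each of 3 arrays. How the arrays were scanned and normalized is not given in the sources used here. Array medians were -0.52, -0.85 and -0.55. Each ratio equalled one of whole numbers within a relative 1e-13, so both channel signals were recovered, with the whole factor lost in reducing the fraction settled from spot pairs and the other arrays. This step was revised after first fits of the data, by its accuracy on simulated signals. On simulated signals 90.1% to 95.1% of spots came within 0.5 on the log2 scale. The simulation took the recovered signals as true and gave both spots of a pair a like signal. It therefore cannot show how often the factor was wrong on the real arrays. Loess (span 0.3) was subtracted per array and spots were averaged per gene. The test was limma 3.58.1 in R 4.3.3, two-sided, adjusted by Benjamini-Hochberg. On simulated arrays of 5539 genes 4 of 146 calls were false. Gene names came from the platform annotation, and all 36 members matched a RefSeq table of the R64 assembly. Named genes were all members, each called gene and the lowest and highest of every list, and genes of known role in those lists. The neighbours on the chromosome and these genes of known role were chosen after their values were seen. Members and lists were chosen with earlier results of these data known. No sequence was used here. Python 3.11.15, numpy 2.4.6, pandas 2.3.3, scipy 1.17.1 and matplotlib 3.10.9 prepared values and figures.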

Additional observations from a re-analysis of the deposited data

Results flagged for a closer look

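Spots that carry no gene name were kept out of every comparison above. Among 959 such features tested with limma, 20 passed as lower and 10 as higher at an adjusted p under 0.05. The lowest ratio was -2.81 and the highest 0.84. They stand here because they are measurements that the comparisons did not use.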

How the results depend on the processing

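Against 3 members called lower and a median of -0.24, median centring called 33 (median -0.73) and the deposited scale 36 (-1.37). Quantile normalization called 5, print-block medians 1, normexp before loess 1, the unmoderated statistic 0 and an adjusted p under 0.01 called 1. By the unmoderated statistic 6 members had an unadjusted p under 0.05, as did 497 of all 5539 genes. Leaving out 1 array in turn gave 1 to 2 members and medians of -0.28 to -0.13. With span 0.5, a prior variance trend, spots as technical replicates, the dimmest genes left out, and loess on the rank or on the mean signal of the spot pair, both chosen after seeing the data, 3 to 4 were called. Of 15 alternatives RPN4 passed in 14, RPT2 in 10 and RPN2 in 9, each below 0 in all 15. These counts include median centring and the deposited scale, under which 33 and 36 of the members passed. The unmoderated statistic, the prior variance trend, spots as technical replicates and the dimmest genes left out reuse the main means. The sign could therefore not differ under those settings. Members with a positive mean after loess reversed and passed as lower under median centring: SCL1 (-0.50), PRE4 (-0.52), RPT5 (-0.49) and RPN10 (-0.48). On the deposited scale SCL1 (-1.14), PRE9 (-0.99), PRE4 (-1.16), RPT5 (-1.13), RPN10 (-1.12) and UMP1 (-0.84) did. Centring and the deposited scale keep the trend with brightness. The cause of the other differences was not tested. Each array already sets mutant against wild type, so the test of the mean ratio against 0 is itself paired by array. Precision is limited by 3 arrays of 1 dye orientation.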
